A study of Mus musculus with 16 samples.

Results

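Retained intron nodes are stretches of a gene that the splicing program Whippet lists as introns that may stay in the mature RNA. They were taken as the rows of that type in the deposited table of inclusion values that held a number for both groups. There were 844 such nodes, of 125520 nodes of all types, and they lay in 725 genes. An intron is cut out of a transcript when U1 snRNP marks its 5' splice site and SF1, U2AF and the SF3 proteins mark its branch point and 3' splice site. An intron that stays can keep the RNA in the nucleus, change a protein or an untranslated region (UTR), or bring a stop codon that exposes the RNA to nonsense-mediated decay. TDP-43, the product of Tardbp, binds UG repeats in RNA and takes part in splicing, and T cells are known to change intron retention when they are activated.

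The samples were mouse CD8+ T cells of the strain OT-1 Tg C57BL/6J, whose T cell receptor sees the ovalbumin peptide SIINFEKL. They were electroporated with Cas9 and a guide, which was scrambled in the Control gRNA group and directed at Tardbp in the Tardbp gRNA group. They were then moved into C57BL/6J mice and sorted from spleen and lymph nodes. The labels put this at 4 days, and parts of the study's own text give a shorter time. Both groups received the peptide with agonist antibodies to OX40 and 4-1BB, and each had 8 libraries of a pool of edited cells, not of clones. The study's text speaks of purification from individual recipient mice, but the labels tie no library to a mouse, so p-values measure the spread between libraries.

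The sequences shown first are those of introns on which the results turn, given 5' to 3' on the transcript strand and read from GENCODE M21 transcripts (GRCm38, equal to mm10) that keep the intron. Rpl10, Zfp207 and Sirt6 are shown because inclusion of their introns, rebuilt for each library, was called different between the groups. Shisa5 is shown because its intron had the smallest adjusted p. For each of these 4 genes, the start of the intron is shown behind the last 3 exon bases. Its end is shown before the next 3, with exon bases in capitals.
Rpl10, chrX:74270875-74270978, 5' end: GCGgtgagtgagttc
Rpl10, 3' end: ctttgactgtttcattacagCCA
Zfp207, chr11:80395574-80395791, 5' end: TAGgtttggagatta
Zfp207, 3' end: ctttttcatgtttcatctagGTT
Sirt6, chr10:81622079-81622407 (minus strand), 5' end: CGGgtatgtggggcg
Sirt6, 3' end: tcactgtgtcccttgtccagGTC
Shisa5, chr9:109051255-109051363, 5' end: CCAgtgtgtagactg
Shisa5, 3' end: cgatttctcttttctgttagCAG
All 4 introns begin with GT and end with AG. Capn15 and Atxn2l had short introns between coding exons with some of the largest differences of Psi, and these are shown whole with their end bases in capitals.
Capn15, chr17:25960232-25960336 (minus strand): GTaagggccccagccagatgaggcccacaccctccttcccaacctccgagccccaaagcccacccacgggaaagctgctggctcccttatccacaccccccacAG
Atxn2l, chr7:126492609-126492757 (minus strand): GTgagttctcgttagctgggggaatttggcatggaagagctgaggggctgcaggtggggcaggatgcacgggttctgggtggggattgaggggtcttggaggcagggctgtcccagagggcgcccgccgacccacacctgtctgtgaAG
The Capn15 intron is 105 bases long, a multiple of 3 with no stop codon in frame, and an annotated transcript reads straight through it. The Atxn2l intron is 149 bases long and holds an in-frame stop.

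Of the 844 nodes, 825 matched an annotated intron base for base and 19 did not. One coordinate was listed more than once. Most host genes (639) had 1 node, 69 had 2 and 17 had 3 or more. Their places in the gene were mixed, with 424 nodes between coding exons, 211 in a 5' UTR, 136 in a 3' UTR and 54 in non-coding transcripts. Place was read from the coding transcripts that splice the node out, where there were any. An annotated reading frame crosses 138 nodes, 130 of them between coding exons. In the longest transcript that splices it out, a coding one where there was any, the node was the first intron in 272 cases and the last in 412.

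The nodes were short. Their median length was 231 bases, against 1117 for the 8407 other annotated introns of the same genes and 1484 for all 284400 annotated introns. The middle of the distribution ran from 108 to 552 bases, and the longest node had 8683. Of the 807 nodes of 20 bases or longer that had a sequence, 722 (89.5%) began with GT and ended with AG, and 20 ran from GC to AG. Their median GC content was 52.1%.

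A small set was only a few bases long, shorter than any intron the spliceosome is known to remove. In 20 genes, 35 nodes had between 1 and 14 bases, and 28 of them had a Psi over 0.9 in Control gRNA. Macf1, which links actin and microtubules, had 7 such nodes, the most of any gene. Cfl1, the actin-severing protein cofilin, had a pair of 2 bases each, and Itgal, the alpha chain of the integrin LFA-1, had 1 of 1 base. These 3 are among the 5 nodes with the highest Psi in genes of at least 20 CPM (counts scaled to the library total) and are printed in capitals within their surroundings.
Cfl1, chr19:5493477-5493514: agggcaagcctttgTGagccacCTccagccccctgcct
Itgal, chr7:127333570-127333598: tgggctgtctagagCccctccgggagagt
Psi was 0.9999 in both groups for both Cfl1 nodes. In Itgal it was 0.998 in both. The rest of the 5 were longer. Gpx1, a glutathione peroxidase, had a node of 104 bases (0.9998 in both). It counts as a 5' UTR intron by the 1 annotated transcript that splices it out. An annotated reading frame crosses it in a transcript that keeps it. Ube2l3, a ubiquitin-conjugating enzyme, had a node of 745 bases (0.99951 and 0.99945). Inclusion rebuilt from transcript counts, described further on, was far from Psi in Cfl1. Its median there was 0.451 in Control gRNA and 0.454 with Tardbp gRNA. None of the 35 short nodes differed by more than 0.1 between groups. They meet the rule and were kept among the 844, and without them the median Psi of the other 809 was 0.374 in Control gRNA and 0.383 with Tardbp gRNA.

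Psi is the fraction of a gene's transcripts that include the node, and the authors' table gives 1 value for each group of 8 libraries. Over the 844 nodes the median Psi was 0.436 in Control gRNA and 0.433 with Tardbp gRNA. Values spanned the whole scale, with 214 nodes under 0.1, 233 between 0.1 and 0.5, 180 between 0.5 and 0.9 and 217 above 0.9 in Control gRNA. By contrast, the 98533 core exon nodes had a median of 0.986.

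Place in the gene went with the level. In Control gRNA the median Psi was 0.866 for 3' UTR introns, 0.856 in non-coding transcripts, 0.417 for 5' UTR introns and 0.208 between coding exons. Within the coding group, the 130 introns that an annotated reading frame crosses had a median of 0.884. For the 294 that no annotated frame crosses it was 0.136. The first set was shorter, with a median of 88.0 bases against 408.5, and 57.7% of its lengths were multiples of 3 against 31.0%. An in-frame stop stood in 280 of the 292 introns of the second set whose frame could be read, with the first stop ending at a median of 36.0 bases into the intron. It was not tested whether such stops are premature or the ordinary end of a coding transcript that keeps the node. Over nodes in all places, the annotated transcripts that keep the node included a protein-coding one for 768 nodes. They included one labelled retained_intron for 126 nodes and one labelled nonsense-mediated decay for 56. Of the first set, 29 had under 20 bases. Without them the median Psi was 0.775 and the median length 108 bases, and 74.3% were multiples of 3, while the second set without its 4 short nodes had 0.132, 412 bases and 31.4%. In the first set, 129 of 130 had no in-frame stop, as their annotation as coding sequence requires. Among 3' UTR introns, the 61 that begin more than 50 bases past the stop codon had a median Psi of 0.912 and the 75 closer to it 0.747. These are levels of nodes and not of samples, and no test was made on them.

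**Figure D1:**
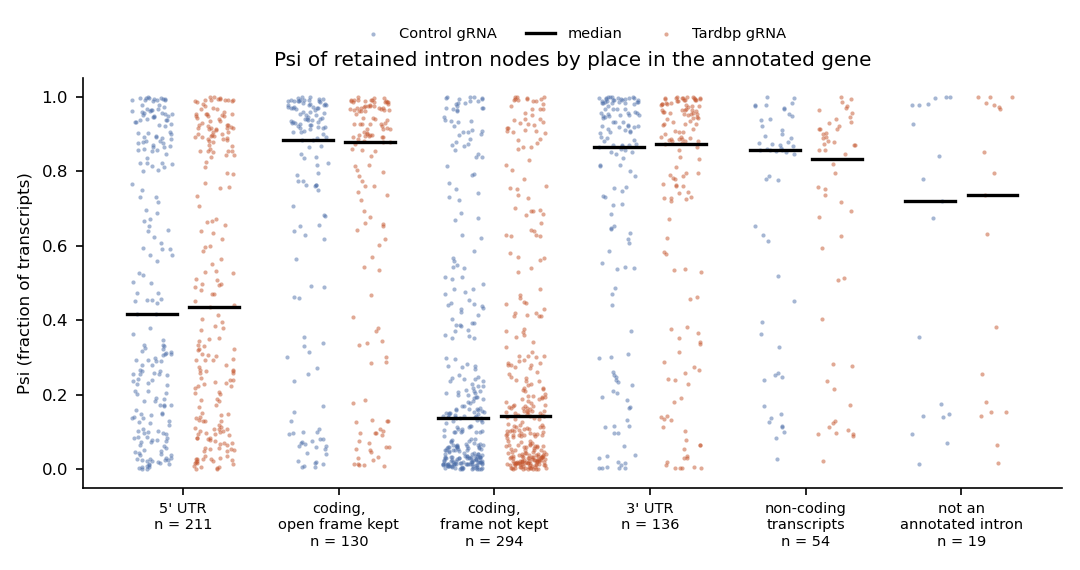
Psi (fraction of transcripts, vertical axis) of every retained intron node by its place in the annotated gene. Each point is 1 node in Control gRNA or Tardbp gRNA, and black bars are medians. Introns between coding exons sat low (median 0.136 in Control gRNA) unless an annotated reading frame crosses them (0.884), and the 2 groups of cells had nearly the same distribution in each class.

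The comparison of the groups asks which introns stayed in more or in fewer transcripts after Tardbp had been targeted. Most nodes hardly moved. Psi differed by less than 0.05 in 658 of 844 nodes (78.0%), with 457 higher and 385 lower in Tardbp gRNA and a median difference of 0.000745. A difference over 0.1 in size was found in 84 nodes (9.95%), 49 higher and 35 lower, against 4.7% of nodes of all types. The background was 2.35% in each direction. Core exons, which mostly have a Psi near 1, passed in 0.932%, alternative acceptors in 8.95% and alternative donors in 134 of 1339. Among nodes with a Control Psi between 0.1 and 0.9, 19.1% of 413 retained introns passed, against 20.1% of all such nodes and 6.92% of core exons.

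Low expression went with large differences. Only 19 of the 522 nodes in genes with a mean of at least 20 CPM passed 0.1 (3.64%), against 65 of 322 in weaker genes (20.2%). The shares of nodes of all types on each side of this cut were not taken. The nodes just inside and just outside the threshold lay in Aebp2, where Psi went from 0.730 to 0.630, and in Gm20163, where it went from 0.777 to 0.678.

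The largest differences of Psi are given as single values, with no test. Among genes of at least 20 CPM the widest was in the 3' UTR of March2, a membrane ubiquitin ligase that the table lists under a date. Psi of this 829-base intron (chr17:33686399-33687227) was 0.905 in Control gRNA and 0.335 with Tardbp gRNA. Psi was also lower in Tardbp gRNA in the 3' UTR of Rsbn1 (0.654 to 0.463), in Capn15 of the calpain family (0.838 to 0.652), in the 5' UTR of Stk11ip, a partner of the kinase LKB1 (0.654 to 0.488), and in Atxn2l, an ataxin-2-like RNA-binding protein (0.622 to 0.468). Sec14l1 (0.871 to 0.737) and the 5' UTR of the nucleotidase gene Cant1 (0.625 to 0.507) were lower too.

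The widest difference in the other direction was in Rbbp6, a ubiquitin ligase that acts in mRNA 3' end processing, where Psi of a 4350-base intron with an in-frame stop went from 0.475 to 0.803. The 5' UTR intron of the RNA helicase gene Dhx30, which the study names, went from 0.253 to 0.404. Psi was higher too in the long non-coding RNA Tug1 (0.148 to 0.284), in Rpl10, a protein of the large ribosomal subunit (0.171 to 0.294), and in 4933434E20Rik (0.792 to 0.911). The most positive difference of all 844 nodes was in a weaker gene, Zfp473, at 6.31 CPM, and was chosen for mention after the values were seen. Its 3320-base intron went from 0.129 to 0.629.

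**Figure D2:**
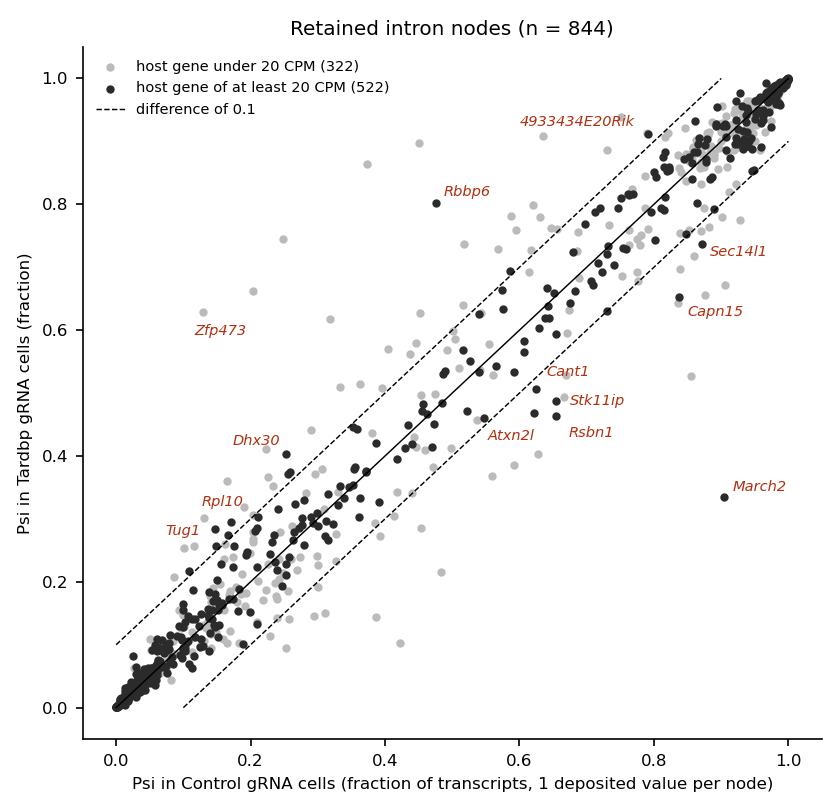
Psi of the 844 retained intron nodes in Control gRNA (horizontal) and Tardbp gRNA (vertical), 1 deposited value for each group. Black points are nodes in genes of at least 20 CPM and grey points those in weaker genes, dashed lines mark a difference of 0.1, and labels give the 12 largest differences among genes of at least 20 CPM with Zfp473 added. Most points lie between the lines, and most of the points outside them are grey.

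Because Psi came as 1 value for each group, inclusion was rebuilt for each library from another table, the estimated counts of annotated transcripts, which come from the same libraries. Rebuilt inclusion is the share of length-scaled counts in transcripts whose exon holds the whole node, over all transcripts that span it. It could be tested with limma for 729 of the 844 nodes. Across these 729 nodes, Control Psi and mean rebuilt inclusion in Control gRNA had a Spearman rho of 0.826, given as a description, and they lay within 0.2 of each other for 76.8% of nodes. Per library, the median rebuilt inclusion of the 729 nodes ran from 0.289 to 0.334 in Control gRNA and from 0.282 to 0.322 with Tardbp gRNA, so the groups overlapped throughout.

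An adjusted p under 0.05 was reached by 7 of the 729 nodes (0.960%, against 0.646% of all 17337 nodes tested). A difference over 0.1 in addition was found for 3 nodes (0.412%, against 0.236%). At an unadjusted limma p under 0.05 the count was 96, and nodes of all types were not counted at that threshold. Psi had moved the same way in all 7, and over nodes of all types in 81 of 112. In 6 of the 7 the libraries of the groups did not overlap, Gimap4 being the exception. The 7 were picked by the test on these same values, and nodes of all types without overlap were not counted.

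Inclusion of the Rpl10 intron rose. Rebuilt inclusion of its 104-base 5' UTR intron, the first of 6, ran from 0.0984 to 0.251 in Control gRNA (median 0.147) and from 0.272 to 0.388 in Tardbp gRNA (median 0.328). Every Tardbp gRNA library was above every Control gRNA library. The difference was 0.168 (SE 0.027, limma adjusted p = 0.00830). The single transcript that keeps the intron went from a median of 88.9 CPM to 164.1, and the 3 others that splice it from 462.5 to 325.6. The gene as a whole fell by 0.19 on the log2 scale (SE 0.05, edgeR adjusted p = 0.00754). Rpl10 has 6 annotated pseudogenes with which reads can be shared, so its counts are uncertain. With the libraries numbered 4 to 8 alone, the difference was 0.154 and no longer called (limma adjusted p = 0.118).

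Inclusion of the Zfp207 intron fell. Its protein, also called BuGZ, binds microtubules and the checkpoint protein Bub3, and the 218-base intron begins 23 bases past the stop codon, in the 3' UTR. Rebuilt inclusion ran from 0.822 to 0.948 in Control gRNA (median 0.892) and from 0.685 to 0.790 in Tardbp gRNA (median 0.753), with no overlap. The difference was -0.143 (SE 0.020, limma adjusted p = 0.00262). Transcripts that keep the intron went from a median of 327.6 CPM to 215.2 and the others from 57.3 to 101.2. With the libraries numbered 4 to 8 alone, the difference was -0.148 and no longer called (limma adjusted p = 0.0879). Psi was much less changed, at 0.985 and 0.960.

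Sirt6, an NAD-dependent deacylase of chromatin, had the third called intron, 329 bases long and beginning 5 bases past the stop codon. Rebuilt inclusion ran from 0.514 to 0.650 in Control gRNA (median 0.559) and from 0.266 to 0.507 in Tardbp gRNA (median 0.430). The highest Tardbp gRNA library lay just under the lowest Control gRNA library. The difference was -0.160 (SE 0.033, limma adjusted p = 0.0433), and Psi was 0.299 and 0.240. The gene is weakly expressed at 13.8 CPM and did not pass the test as a whole (log2 fold change -0.03, SE 0.07, adjusted p = 0.711). This call was lost when any 1 of 12 libraries was left out, with adjusted p-values from 0.0505 to 0.0818, these being Control gRNA 1, 2, 3, 4, 5, 7 and 8 and Tardbp gRNA 1, 4, 5, 7 and 8. It was lost too with the libraries numbered 4 to 8 (-0.158, adjusted p = 0.188) and with the division of the numbers into 1 to 3 and 4 to 8 as a term (-0.160, adjusted p = 0.0527).

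Shisa5, a p53-inducible protein of the endoplasmic reticulum, had the smallest adjusted p but a small difference. Its 109-base 5' UTR intron, with 1 TGTGTG, ran from 0.0176 to 0.0348 in Control gRNA (median 0.0260) and from 0.0523 to 0.0766 in Tardbp gRNA (median 0.0550). All 8 Tardbp gRNA libraries were above all 8 of Control gRNA. The difference was 0.034 (SE 0.0038, limma adjusted p = 0.000595). The retaining transcript went from a median of 17.6 CPM to 39.7, and the others from 1101 to 1180. Psi was 0.149 and 0.258.

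Ost4, a small subunit of the oligosaccharyltransferase, rose by 0.055 in its 128-base 5' UTR intron (0.711 to 0.772 against 0.776 to 0.828, limma adjusted p = 0.0124). Ppp1r18, a regulatory subunit of protein phosphatase 1, rose by 0.013 in an 857-base intron with an in-frame stop (0.0118 to 0.0257 against 0.0263 to 0.0395, adjusted p = 0.0213). Gimap4, a GTPase of lymphocytes, rose by 0.037 in a 384-base intron with an open frame (0.783 to 0.830 against 0.823 to 0.861, adjusted p = 0.0425). Psi was 0.280 and 0.330 in Ost4, far under its rebuilt inclusion. It was 0.0122 and 0.0163 in Ppp1r18, and 0.966 and 0.992 in Gimap4. These 3 and Shisa5 differed by less than 0.1 in rebuilt inclusion and so were not called. The adjusted p of Gimap4 passed 0.05 when any 1 of 12 libraries was left out (0.0529 to 0.0847), these being Control gRNA 2, 4, 5, 7 and 8 and Tardbp gRNA 1, 2, 4, 5, 6, 7 and 8. With the libraries numbered 4 to 8 alone, the adjusted p was 0.0690 for Ost4, 0.154 for Ppp1r18 and 0.142 for Gimap4, and for Gimap4 it was 0.0545 with the division of the numbers as a term. Gimap4 and Ost4 also rose as genes, by 0.43 (SE 0.05) and 0.25 (SE 0.05) on the log2 scale.

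**Figure D3:**
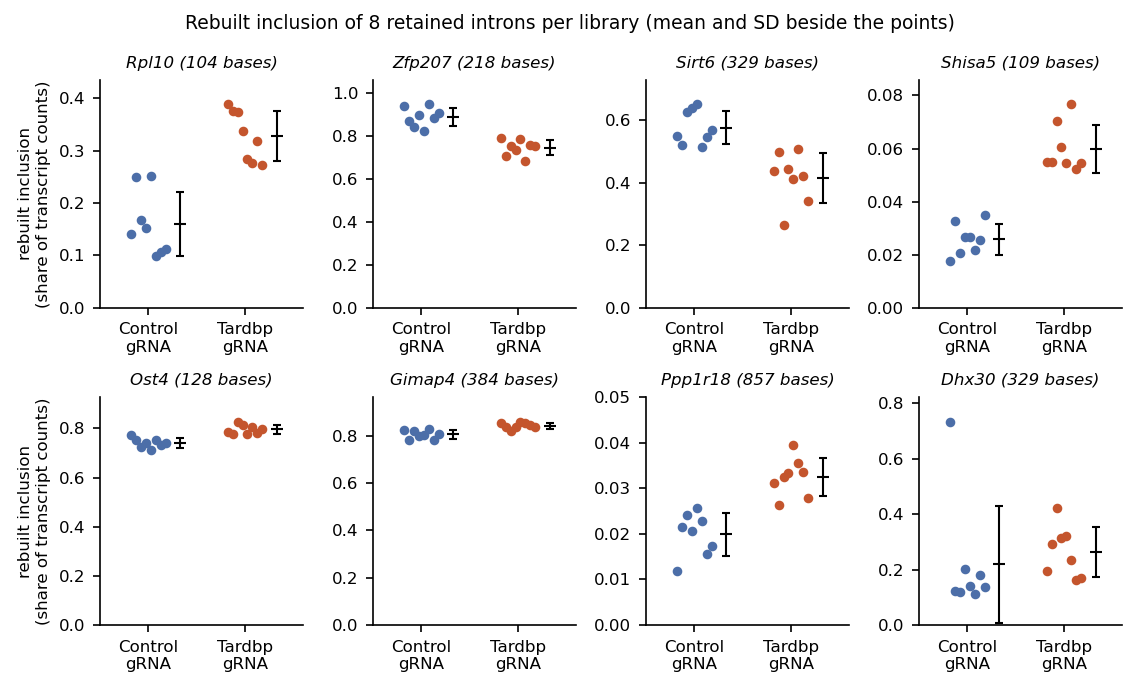
Rebuilt inclusion (share of length-scaled transcript counts, vertical axis from 0) of the 7 nodes with an adjusted p under 0.05 and of Dhx30, each point 1 library, with the mean and SD beside each group of 8. The groups are apart in Rpl10, Zfp207, Sirt6, Shisa5, Ost4 and Ppp1r18, and 1 Control gRNA library of Dhx30 lies at 0.734.

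**Figure D4:**
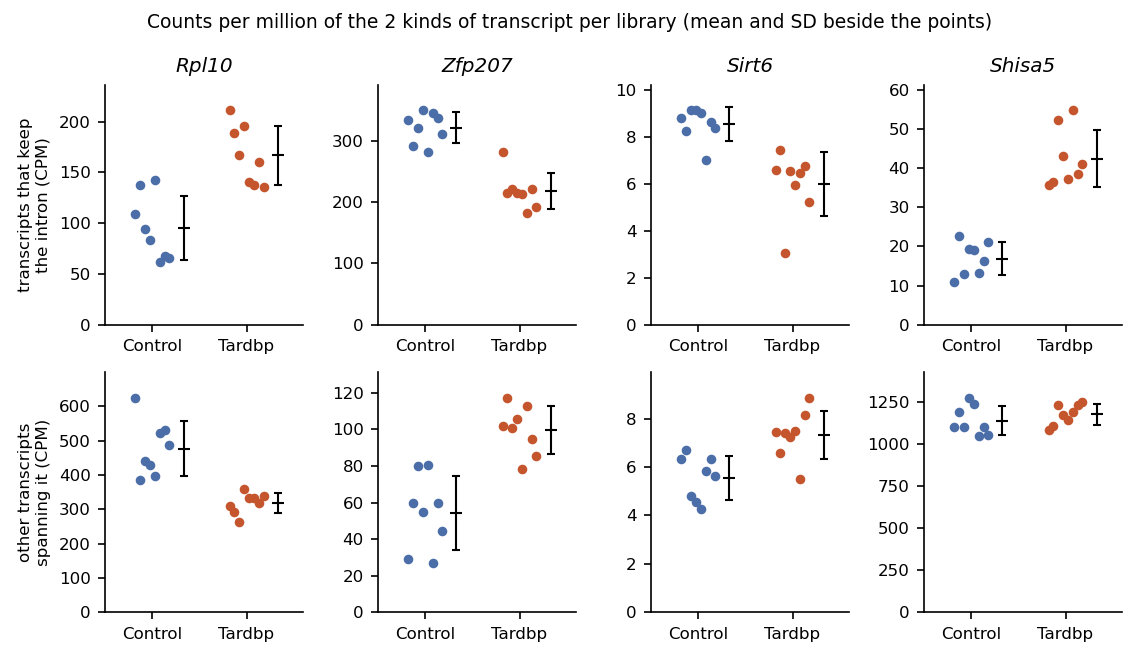
CPM of the transcripts that keep the intron (upper row) and of the other transcripts that span it (lower row) in Rpl10, Zfp207, Sirt6 and Shisa5, each point 1 library, with the mean and SD. In Rpl10 and Zfp207 the 2 kinds of transcript moved in opposite directions, and in Shisa5 the retaining transcript was higher in every Tardbp gRNA library.

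Few of the wide differences of Psi came with a call. Of the 84 nodes past 0.1, rebuilt inclusion was tested for 77 and had the same sign for 55, and 2 of them (Rpl10 and Shisa5) had an adjusted p under 0.05. In genes of at least 20 CPM the sign was the same for 15 of 19. The March2 node rested on a mean of 51.8 counts, and its libraries ran from 0.254 to 1 in Control gRNA and from 0 to 0.636 with Tardbp gRNA, overlapping widely. Its difference was -0.25 (SE 0.13, adjusted p = 0.602). Rbbp6 ran from 0.0251 to 0.0662 and from 0.0402 to 0.0753, far under its Psi in both groups (difference 0.0090, SE 0.0060, adjusted p = 0.714).

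Sec14l1 gave similar sizes by both measures, with rebuilt values of 0.703 to 0.978 and 0.575 to 0.799 and a difference of -0.142 (SE 0.046), but its adjusted p was 0.224. Cant1 had a rebuilt difference of -0.194 (SE 0.084, adjusted p = 0.456). In Capn15 the rebuilt difference was -0.0025 (SE 0.10), far smaller than that of Psi but of the same sign. In 4933434E20Rik it was -0.036 (SE 0.021), opposite in sign to Psi. Zfp473 went the other way, with a rebuilt median of 0.00467 in Control gRNA and 0.00199 with Tardbp gRNA and ranges that overlapped.

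Dhx30 was set apart by 1 library. Its 329-base intron, the second of 22, ran from 0.112 to 0.734 in Control gRNA (median 0.139) and from 0.162 to 0.422 in Tardbp gRNA (median 0.263). Control gRNA library 1 was the one at 0.734, and the other 7 were at 0.202 or lower. The difference was 0.045 (SE 0.079, adjusted p = 0.887), and without that library 0.118 (SE 0.035, adjusted p = 0.222). The gene itself fell by 0.50 on the log2 scale (SE 0.06, edgeR adjusted p = 1.27e-06).

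Tardbp was itself among the hosts. Its RNA stood at 192.3 ± 13.3 CPM with the Control guide and 134.8 ± 11.3 with the Tardbp guide (SD, n = 8). That is -0.51 on the log2 scale (SE 0.06, adjusted p = 8.07e-07 by edgeR), with every Tardbp gRNA library under every Control gRNA library. Its node is a 941-base intron at chr4:148617706-148618646 (minus strand) that holds an in-frame stop. Whether that stop is premature or the ordinary end of a coding transcript that keeps the node was not tested. Inclusion of this node therefore does not tell productive from unproductive RNA. Psi was 0.517 and 0.568. Rebuilt inclusion ran from 0.0602 to 0.149 in Control gRNA (median 0.0796) and from 0.0871 to 0.619 in Tardbp gRNA (median 0.167), so the groups overlapped. The difference of 0.139 (SE 0.062, adjusted p = 0.486) was 0.082 (SE 0.031, adjusted p = 0.350) without Tardbp gRNA library 2, the one at 0.619. Transcripts that keep the intron had medians of 47.0 and 45.6 CPM, while the others that span it went from 139.9 to 69.0.

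Several hosts are genes of the splicing and RNA decay machinery, which are known for introns that regulate their own level. Srsf2, an SR protein, had a 3' UTR intron with a Psi of 0.907 and 0.886 that begins 217 bases past the stop codon. Its relative Srsf1 had an intron near full inclusion (0.998 and 0.994) and a second near none (0.0610 and 0.109). Mat2a, the S-adenosylmethionine synthetase whose last intron is known to be detained, had 0.152 and 0.155, and the O-GlcNAc transferase gene Ogt had 0.803 and 0.844 at its first intron. Luc7l3, a U1-associated protein, had 0.241 and 0.315 in a 1348-base intron and 0.142 and 0.155 in a node of 52 bases. U2af2 (0.993 and 0.992) and Sf1 (0.433 and 0.449) of the 3' splice site, Rbm8a of the exon junction complex (0.00153 and 0.00277) and the 2 nodes of the nuclear poly(A)-binding protein gene Pabpn1 (0.0608 and 0.0516, and 0.00587 and 0.00665) were close in the 2 groups. Mat2a was one of several nodes whose level depended on the measure, with a rebuilt median of 0.645 in Control gRNA and 0.627 with Tardbp gRNA. None of these 12 nodes passed the test of rebuilt inclusion, with adjusted p-values from 0.417 to 0.999.

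The lists of genes of these pathways differed in how many changed in amount, by an edgeR adjusted p under 0.05. Of 14 genes that recognise the branch point and 3' splice site, 11 fell and 2 rose, against a background of 23.3% lower and 23.5% higher among all 16650 genes. Sf3b3 fell by 0.69 (SE 0.06) and Sf3a1 by 0.64 (SE 0.07) on the log2 scale, and the hosts Sf1 and U2af2 fell by 0.53 (SE 0.05) and 0.39 (SE 0.07). Of 8 genes of the minor spliceosome, which removes a rare class of introns, 5 rose and none fell, with Zmat5 at 0.48 (SE 0.05) and Zcrb1 at 0.38 (SE 0.06). U1-associated genes were split, with 4 of 9 in each direction.

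Among 20 genes known for regulated introns, 19 were tested, of which 5 rose and 8 fell. Tra2b fell by 0.85 (SE 0.10) and Srsf1 by 0.47 (SE 0.06), while the cold-inducible gene Cirbp rose by 0.78 (SE 0.15). Of 10 genes of nonsense-mediated decay, 2 rose (20%, against 23.5% of all genes) and 4 fell (40%, against 23.3%). Upf1 fell by 0.55 (SE 0.18) on the log2 scale. Of 9 genes of the nuclear exosome and its adaptors, 2 rose and 4 fell, with the helicase gene Mtrex at -0.53 (SE 0.05). In the exon junction complex, 1 of 5 fell (20%, against 23.3% of all genes) and 0 rose. The gene that fell was Eif4a3, by 0.21 (SE 0.03). Without TMM scaling 10 of the 14 branch point genes fell, 6 of the 8 minor spliceosome genes rose, 2 of 5 exon junction genes rose and 1 fell, and the decay and exosome lists had 4 in each direction, where 29.3% of all genes rose and 18.8% fell.

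Of the 725 host genes 722 were tested, and 231 rose (32.0%, against 23.5% of all genes) and 194 fell (26.9%, against 23.3%). Without TMM scaling 279 rose (38.6%, against 29.3% of all genes) and 152 fell (21.1%, against 18.8%). In 1326 annotated transcripts that keep a node, 1047 could be tested, and 80 were called higher (7.64%) and 89 lower (8.50%), against 8.5% and 8.14% of all transcripts. Without TMM scaling the split of these transcripts turned, to 121 higher (11.6%, against 12.6% of all transcripts) and 61 lower (5.83%, against 5.77%). Of the 169 called transcripts, 149 lay in a gene called in the same direction, 4 in a gene called in the other and 16 in a gene not called. Counts of a transcript are part of those of its gene, and the matching share of all called transcripts was not counted.

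The highest among them were Ypel3-203, at a log2 fold change of 2.35 (SE 0.32), Ypel3-208, Cotl1-201 of a coactosin-like actin-binding protein, Nptn-205 and Egr2-201 of the activation-induced transcription factor, all at 1.56 or higher. Ypel3-203 ran from 0.828 to 4.22 CPM in Control gRNA and from 8.37 to 19.1 with Tardbp gRNA, with no overlap. The lowest were Fscn1-201 of the actin-bundling protein fascin, at -3.04 (SE 0.36), Ly6e-201, Arhgap11a-203, Brcc3-202 and Trim16-201, at -1.23 or lower. Ly6e-201, at -2.80 (SE 0.89, edgeR adjusted p = 0.0406), ran from 3.13 to 112.1 CPM in Control gRNA (median 5.38) and from 1.905 to 11.5 with Tardbp gRNA (median 2.93), so the groups overlapped and its mean in Control gRNA lay far above the median. Fscn1-201 ran from 3.12 to 21.6 CPM in Control gRNA and from 1.04 to 1.82 with Tardbp gRNA. In these cases the transcript is annotated as protein-coding or, for Ypel3-208, as a processed transcript.

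A wider class of transcripts showed another pattern. GENCODE labels 21848 transcripts as retained_intron, non-coding RNAs that hold intron sequence, and only 149 of them keep a node. Their share of all transcript counts ran from 3.10 to 3.82% in Control gRNA (median 3.61%) and from 3.68 to 4.49% in Tardbp gRNA (median 4.07%). Tardbp gRNA library 8 alone lay within the Control gRNA range, and the means were 3.56 ± 0.23% and 4.09 ± 0.25% (SD, n = 8). The difference of 0.535 percentage points had a two-sided exact permutation p of 0.000622, where 0.000155 is the smallest this design allows. It was 0.550 points (exact permutation p of 0.000622) without the 10 most abundant transcripts of the class, and 0.292 points (exact permutation p of 0.0163) with counts divided by transcript length. Between the libraries numbered 1 to 3 the means were 3.56% and 4.18%, and between those numbered 4 to 8 they were 3.55% and 4.04%.

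Of the 8880 tested transcripts of this class, 936 rose (10.5%) and 127 fell (1.43%), against the 8.5% and 8.14% of all transcripts given before. More rose than fell under every alternative, scaling included. The members of the class that keep a node also took a larger share, at 0.0729 ± 0.0043% and 0.0827 ± 0.0087% of counts (SD, n = 8). The libraries overlapped, and the two-sided exact permutation p was 0.00886. The deposited RNA concentration, whose unit is not given, ran from 34.9 to 197.1 in Control gRNA and from 10.1 to 24 with Tardbp gRNA, so RNA input and guide cannot be told apart. In such bulk samples, fewer cells of a type and less RNA per cell cannot be told apart either.

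**Figure D5:**
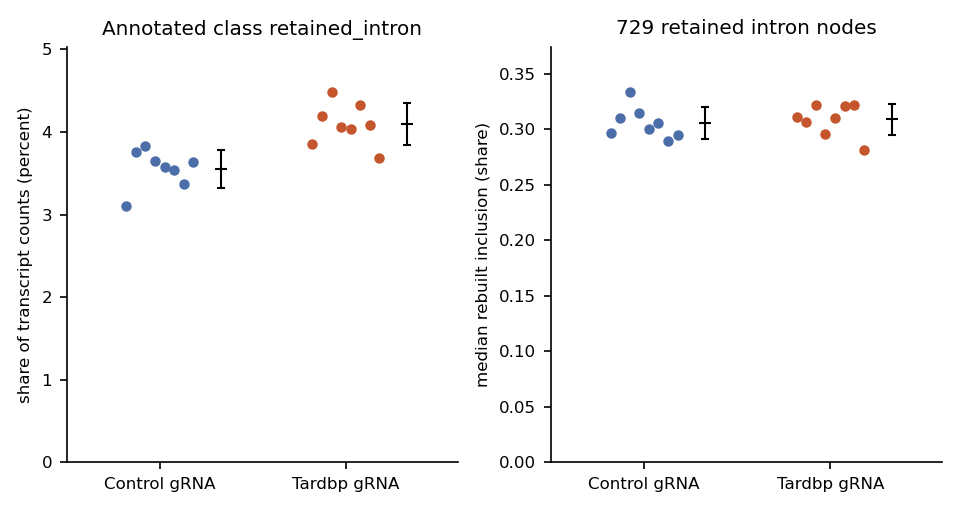
Left, the share of transcript counts (percent) in transcripts that GENCODE labels retained_intron, and right, the median rebuilt inclusion of the 729 tested retained intron nodes, each point 1 library, with the mean and SD. The share was higher in Tardbp gRNA (4.09% against 3.56%), while the medians of the nodes overlapped.

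UG repeats were looked for as the letters TGTGTG on the transcript strand, overlaps counted. At least 1 was held by 196 of the 842 nodes with a sequence (23.3%). Such nodes were longer (median 776 against 169 bases). Among them 25 (12.8%) passed a Psi difference of 0.1, and of the 646 without it 59 did (9.13%). At lengths of 100 to 300 bases, 11.6% of 303 retained introns held the motif and 5.96% of 59678 core exons. The letters of the other strand, CACACA, were in 3.63% and 4.73%. Other annotated introns were not searched, so these shares do not tell retained introns from introns in general.

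Stretches from 4 nodes rich in TGTGTG are shown because UG repeats are what TDP-43 is known to bind. Capitals mark TGTGTG and runs of it, and the nodes were chosen after the values were seen.
Zfp473, chr7:44736518-44736607 (minus strand), within its coding-region intron: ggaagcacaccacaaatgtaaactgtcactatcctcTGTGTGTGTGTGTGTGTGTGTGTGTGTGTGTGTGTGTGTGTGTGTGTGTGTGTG
Spop, chr11:95414149-95414178, within its 5' UTR intron: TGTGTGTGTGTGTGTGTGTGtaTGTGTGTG
Orai1, chr5:123030025-123030054, within its 3' UTR intron: gTGTGTGTGTGcgTGTGTGTGTGTGTGaga
Pqbp1, chrX:7898740-7898769 (minus strand), within its 5' UTR intron: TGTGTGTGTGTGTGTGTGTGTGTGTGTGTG
Of the 20 nodes with 8 or more overlapping copies, 2 passed a Psi difference of 0.1 and 14 differed by less than 0.05. Zfp473 had 27 copies and the large difference given before. Spop, an adaptor of a cullin ubiquitin ligase, had 43 in 200 bases and went from 0.948 to 0.854, with rebuilt values of 0.880 to 0.971 and 0.781 to 0.953 that overlapped. Orai1, the pore of the store-operated calcium channel, had 11 in 93 bases and a Psi of 0.986 and 0.994. Cacfd1 had the most, 60, and went from 0.816 to 0.906. Pqbp1, with 25 copies, and Fxyd5, with 38, stayed near 0 in both groups (0.0109 and 0.0157, and 0.00283 and 0.00337). Armt1 with 35 copies (0.0496 and 0.0385), Qsox2 with 28 (0.688 and 0.684), Hic2 with 23 (0.874 and 0.860), Il18r1 with 21 (0.978 and 0.974) and Rufy3 with 20 (0.141 and 0.117) covered low and high Psi and differed by less than 0.05. A match to these letters is a description and not a site.

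The libraries held 73649630 to 93893357 estimated counts in Control gRNA and 56016533 to 94801105 with Tardbp gRNA. The CD8 T cell markers Cd8a, Cd8b1, Cd3e and Trac summed to 2654 to 3335 CPM in Control gRNA and to 4129 to 5181 with Tardbp gRNA, and the CD4 T cell markers stayed under 1 CPM in all libraries. B cell markers (3 genes) summed to 0.201 to 3.72 and 0.675 to 6.54 CPM, those of myeloid cells (3 genes) to 14.3 to 33.9 and 18.6 to 77.6, and those of red cell precursors (3 genes) to 0.147 to 5.27 and 3.07 to 54.6. Their part in the results was not tested.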

How the data were processed

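RNA of 16 libraries, 8 for each guide, was made into sequencing libraries (SMART-Seq v4, Nextera XT) and read for 100 bases from both ends. According to the submitters' processing notes, mm10 alignment by the authors used HISAT2 2.1.0 and SAMtools 1.9, and they made estimated counts per gene and transcript with StringTie 2.1.0. The deposited counts were whole numbers with no normalization. The deposited Psi values are fractions from Whippet (version not given in the sources used here), 1 for each group. Columns A and B were read as Control and Tardbp, as their naming rule gives. The table also holds the authors' difference of Psi and its probability, which were not used. The deposited read totals and RNA concentrations came from the sequencing facility. In each count table, 10 columns matching none of these samples were left unused, and lines without an annotated gene (0.0836 to 0.132% of counts) were left out.

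Nodes were matched to GENCODE M21 (GRCm38) by symbol and position, and 24 names by position alone. edgeR 4.0.16 under R 4.3.3 tested genes and transcripts (quasi-likelihood, TMM, filterByExpr with minimum count 10), DESeq2 1.42.0 being an alternative. Rebuilt inclusion needed a mean of at least 50 counts and was tested with limma 3.58.1 over nodes of all types. A call required a Benjamini-Hochberg adjusted p under 0.05 and, for inclusion, a difference over 0.1. Exact permutation tests used SciPy 1.17.1 in Python 3.11.15. Tests are two-sided. As a check of the code, the fits were run on simulated data with 200 changed features and a fixed spread, simpler than these data. The bar for features recovered was lowered after the first run fell just short of it.

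Named nodes are the 12 largest Psi differences in genes of at least 20 CPM, those called, Dhx30, the 5 highest in Control gRNA, those beside the threshold and those in listed genes. For transcripts they are the 5 highest and 5 lowest called fold changes at a mean log2 CPM of at least 1. Nodes with an adjusted p under 0.05 alone, with many TGTGTG, Tardbp and Zfp473 were added after values were seen. Members and lists were chosen with earlier results of these data known. Alternatives covered scaling, filters, count minimums, the scale of inclusion, library numbers and single libraries.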

Additional observations from a re-analysis of the deposited data

Results flagged for a closer look

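In 6 of 48 groups of 8 values looked at, 1 library lay far from the other 7, where chance gives about 1 in 20 (2.4 groups). Rebuilt inclusion of the Dhx30 intron was 0.734 in Control gRNA library 1, with the others from 0.112 to 0.202. For the Tardbp intron it was 0.149 in Control gRNA library 2 (others 0.0602 to 0.0965) and 0.619 in Tardbp gRNA library 2 (others 0.0871 to 0.283). Tug1 was at 0.312 in Tardbp gRNA library 8 (others 0.0757 to 0.187), and 4933434E20Rik at 0.729 in Tardbp gRNA library 6 (others 0.809 to 0.879). Tardbp RNA itself was lowest in Tardbp gRNA library 3, at 110.4 CPM against 129.8 to 147.0 in the others.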

How the results depend on the processing

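The share of counts in retained_intron transcripts and the fall of Tardbp kept their direction and side of the threshold under all alternatives run, and host gene calls stayed within 1.5 times. The share difference was 0.470 to 0.594 points with 1 library left out. Nodes past a Psi difference numbered 186 at 0.05, 18 at 0.2 and 19 in genes of at least 20 CPM, instead of 84. Rebuilt inclusion gave 3 called introns, 16 on the log2 odds scale with a difference over 1 (2 shared), 7 by adjusted p alone, 1 (Txlng) with libraries numbered 4 to 8, 3 with the division of the numbers into 1 to 3 and 4 to 8 as a term (Rpl10, Zfp207 and Txlng, with Sirt6 lost), and 2 to 4 with 1 library left out, an alternative added after seeing the data. Rpl10 and Zfp207 were called in all 16 of those fits. With the replicate block 0 introns were called by limma (88 had an unadjusted p under 0.05), and the 7 had adjusted p-values from 0.0537 to 0.243. For the counts on the log2 odds scale and with the block, shares over nodes of all types were not taken. Whether numbers pair the libraries was not tested. Deviations of same-numbered libraries correlated at -0.0048 to 0.16, and 2 Control and 3 Tardbp gRNA libraries of 8 correlated best with their own number. Under the block 140 retaining transcripts were called, instead of 169, and 421 host genes, instead of 425. The count of transcripts was 106 with libraries numbered 4 to 8. The cause of these moves was not tested. Psi has no error per library, counts are estimates that split reads between annotated transcripts, and PCR copies were not removed from them.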
